A study of Mus musculus with 76 samples.

Results

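The endoplasmic reticulum folding and stress genes examined here are 36 named genes of the unfolded protein response and the integrated stress response. They were chosen by name from the 54232 genes of the raw count table, and 36 of 36 were found there. They were followed in visceral adipose tissue (VFAT), kidney and heart of male Fox Chase SCID mice (CB17/Icr-Prkdcscid/IcrlcoCrl) that the series' design text gives as 12 weeks old. The Prkdc scid mutation, which blocks the maturation of T and B lymphocytes, was carried by every animal, so the Sham controls share it. In 5 arms, mice had a sham operation (Sham) or lost part of their kidney mass by partial nephrectomy (PNx), the latter alone or with a transplant labelled Control Cells, Lenti-adipo-NaKtide (NaKtide cells) or Lenti-adipo-scrambled (scrambled cells). NaKtide is a peptide that inhibits the kinase Src as it is held by the Na/K-ATPase. The labels do not spell out "adipo", and they name neither the type of the transplanted cells nor the promoter of the construct. The 76 libraries made 74 samples, 5 in each of the 15 groups of arm and tissue except the VFAT scrambled cell arm, which had 4. The labels do not say that samples of a group came from separate animals, so p-values measure the spread between these samples, which may be technical.

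Proteins bound for the membrane, the lysosome or the outside of the cell enter the endoplasmic reticulum through the Sec61 channel and are folded there by chaperones and disulfide isomerases. When unfolded protein builds up, the sensors IRE1 (Ern1), PERK (Eif2ak3) and ATF6 are released from the chaperone BiP (Hspa5). IRE1 splices the Xbp1 message into a form that codes for an active transcription factor, ATF6 is cut into one, and PERK lowers general translation while the factor ATF4 is made. The products of this response include more chaperones, the machinery that sends misfolded protein back to the cytosol for degradation (Herpud1, Sel1l, Syvn1, the Derl proteins), and the ATF4 targets, among them Trib3, Asns, Chac1, Psat1 and Phgdh. Cells that secrete much protein, such as the principal cells of the epididymis, pancreatic acinar cells and plasma cells, hold high levels of the folding machinery at rest. In male rodents the epididymis lies within the epididymal fat pad, and Gpx5 codes for a glutathione peroxidase secreted by its epithelium. The counts here give the amount of a message, not the splicing of Xbp1 or the cleavage of ATF6.

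Heart samples held 2803991 to 12986214 counts, kidney samples 1241590 to 16912788 and VFAT samples 5666563 to 22287510. Levels are CPM (counts scaled to a fixed library total) after TMM scaling, a correction for differences in RNA composition. The tissue labels matched their markers: the summed CPM of 7 adipocyte markers had a median of 15741 in VFAT, 2073 in kidney and 539 in heart, that of 6 cardiomyocyte markers was 29293 in heart and 11.2 in kidney, and that of 7 proximal tubule markers was 16395 in kidney and 33.7 in heart. In heart, the proximal tubule sum reached 3692 CPM in a Sham sample, and 4 atrial markers summed to 10.9 to 7031 CPM. Several VFAT samples also held messages of other organs. Of 15 epididymis markers the summed CPM was 44046, 481, 13934, 34989 and 16854 in VFAT Sham 1 to 5, against 0.822 to 150 in the PNx samples. Pancreatic acinar markers summed to 6673, 39789 and 755 CPM in VFAT scrambled 2, 3 and 4 and to at most 8.21 CPM in each other VFAT sample. In VFAT NaKtide 5, 8 seminal vesicle genes, a list drawn up after this sample was seen to stand apart, summed to 50158 CPM. Skeletal muscle markers summed to 9265 CPM in Sham 3 and to 4181, 38133, 522 and 24724 CPM in scrambled 1 to 4, against 79.6 CPM or less in each other VFAT sample. Liver markers summed to 4259 and 7926 CPM in control cells 3 and 5 and to 1891 CPM in PNx 3. Of 5 plasma cell markers, Jchain, Mzb1, Igkc and Tnfrsf17 reached at most 0.839, 1.25, 2.91 and 1.24 CPM in any VFAT sample, while Ighm, which other B lineage cells also express, was at 24.5 to 474.7 CPM.

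The promoters of several members carry the element through which ATF6 and XBP1 are known to act. The RefSeq promoter table (build GRCm38.p6) held 31 of the 36 members. Both strands of the 250 bases before each start were searched for the ER stress response element ERSE, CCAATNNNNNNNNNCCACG, where N is any base. It was found in 9 of the 31 members and in 35 of all 27025 genes of the table (0.13%). The 10 sites are shown to let the shared letters be compared, each read along its own orientation with 5 flanking bases on either side, the fixed letters of the element being in capitals.
Calr: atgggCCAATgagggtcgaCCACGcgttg
Canx: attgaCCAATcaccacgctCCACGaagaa
Creld2: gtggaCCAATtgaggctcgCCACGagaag
Derl3: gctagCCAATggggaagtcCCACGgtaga
Dnajc3: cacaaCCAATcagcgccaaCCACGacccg
Hsp90b1 near site: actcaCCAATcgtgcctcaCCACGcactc
Hsp90b1 far site: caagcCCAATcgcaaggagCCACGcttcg
Hspa5: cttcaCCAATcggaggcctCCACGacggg
Pdia6: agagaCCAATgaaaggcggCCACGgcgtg
Syvn1: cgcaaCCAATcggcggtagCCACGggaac
The printed stretches lie at chr8:84847070-84847098 (Calr, plus strand), chr11:50325795-50325823 (Canx, minus), chr15:88819515-88819543 (Creld2, minus), chr10:75893237-75893265 (Derl3, minus), chr14:118937822-118937850 (Dnajc3, plus), chr10:86705528-86705556 and chr10:86705633-86705661 (Hsp90b1, plus and minus), chr2:34772020-34772048 (Hspa5, plus), chr12:17266486-17266514 (Pdia6, plus) and chr19:6046527-6046555 (Syvn1, plus). All lie upstream of the gene in GENCODE M21 except that of Hspa5, which overlaps the first exon of a longer GENCODE transcript.

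Other elements were rarer among the members. The related ERSE-II, ATTGGNCCACG, stood in Herpud1 and in 10 genes of the table (0.037%). The core of the XBP1 element UPRE, TGACGTG, stood in Hspa5, 157 to 151 bases before its start, and in 499 genes (1.85%). The C/EBP-ATF element bound by ATF4 and CHOP, TGATGCAA, stood in Herpud1 and Chac1 and in 248 genes (0.918%). No match of one motif overlapped a match of another in these members. The stretches of Hsp90b1 at chr10:86705510-86705664 (minus strand), which holds both of its ERSE sites, and of Herpud1 at chr8:94386209-94386428 (plus strand), which holds a reversed C/EBP-ATF element followed by ERSE-II, show how closely such sites are spaced, with the letters of each element in capitals.
Hsp90b1: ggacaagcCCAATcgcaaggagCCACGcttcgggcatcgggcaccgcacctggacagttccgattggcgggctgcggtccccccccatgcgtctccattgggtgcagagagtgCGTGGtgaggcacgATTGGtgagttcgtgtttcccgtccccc
Herpud1: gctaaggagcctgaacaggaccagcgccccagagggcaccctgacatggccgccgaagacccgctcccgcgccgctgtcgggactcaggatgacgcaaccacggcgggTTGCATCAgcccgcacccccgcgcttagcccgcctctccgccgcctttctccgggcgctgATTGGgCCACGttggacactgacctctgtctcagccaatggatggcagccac
A match is a description of letters and shows neither binding nor use of a site.

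In VFAT, most folding genes were lower in the PNx samples than in the Sham samples. Of the 36 members, 24 passed the test, 22 of them lower and 2 higher in PNx, where a call is an adjusted p under 0.05 from edgeR's quasi-likelihood test with Benjamini-Hochberg adjustment over all genes tested. Over all 17552 genes tested, 13.0% were called, 8.18% lower and 4.83% higher. The median log2 fold change was -0.97 over the members and 0.01 over all genes tested. The chaperones (8 of 8), J cochaperones (3 of 3) and disulfide isomerases (4 of 4) were all called lower, against 4 of 9 degradation and translocation genes, 3 of 6 sensors and factors, and 0 of 6 integrated stress response targets. The 2 higher members were the factor Xbp1 and the pseudokinase Trib3. Fewer cells of a type and less RNA per cell cannot be told apart in such bulk samples.

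**Figure D1:**
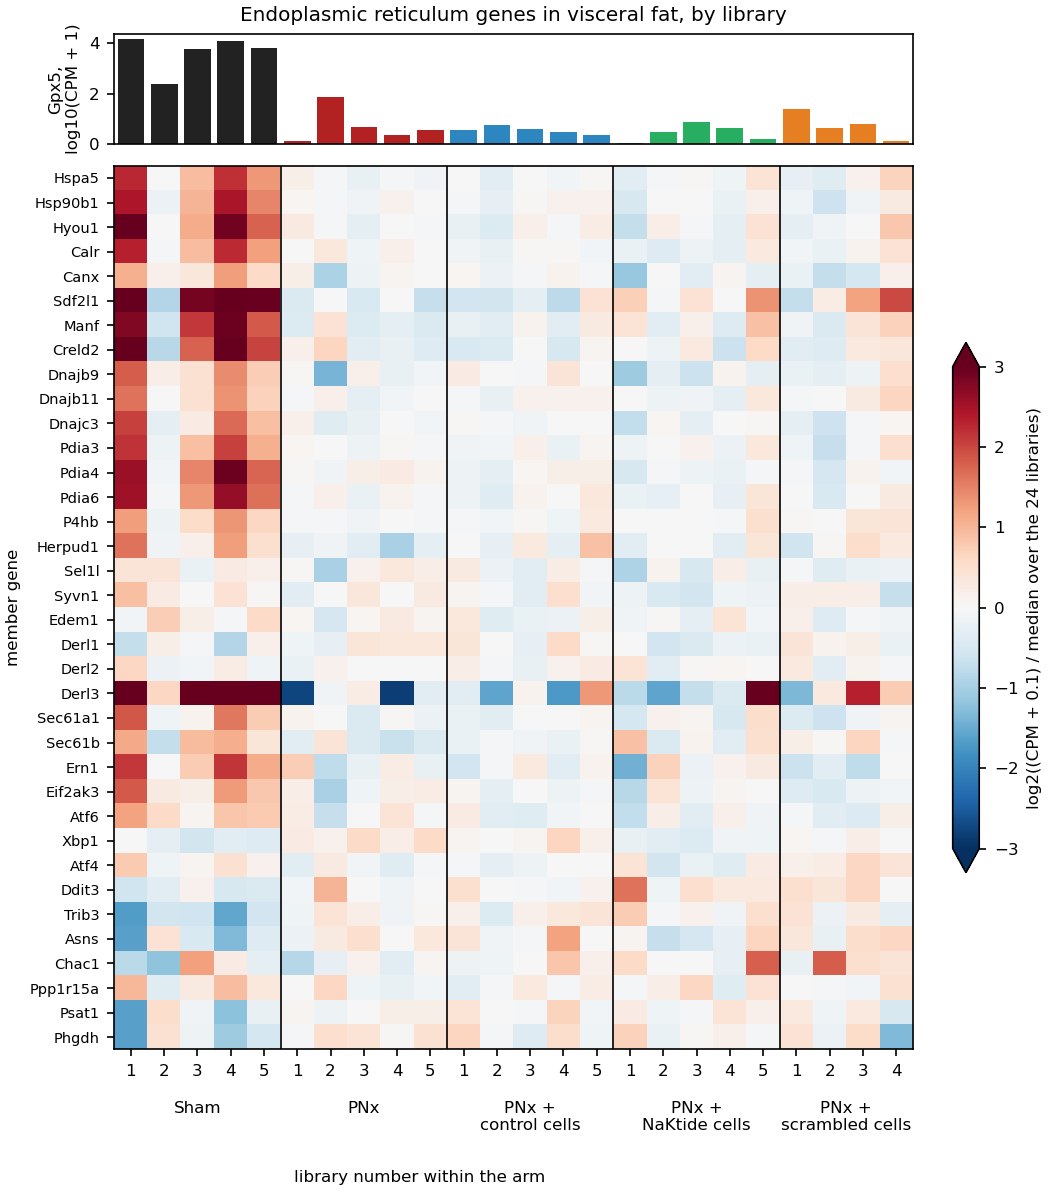
Each row is 1 of the 36 members and each column 1 of the 24 VFAT samples, grouped by arm. The colour is log2 of CPM + 0.1 relative to the member's median over these samples, and the bars above give Gpx5 as log10 of CPM + 1. Sham 1 and Sham 4 are high in most chaperone and isomerase rows, and Sham 2 resembles the PNx samples in those rows.

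Among the chaperones, Hspa5 codes for BiP, the Hsp70 of the endoplasmic reticulum. It was at 1864, 391.6, 735, 1777 and 959 CPM in Sham 1 to 5 and at 434, 380.0, 333, 373 and 360.4 CPM in PNx 1 to 5. It fell by 1.61 on the log2 scale (SE 0.30, adjusted p = 0.0015). Sham 1 and 4 were the highest, and Sham 2 lay inside the PNx range, so the groups overlapped. Hsp90b1, the Hsp90 of the same compartment (GRP94), was at 1737, 287, 659, 1764 and 893 CPM in Sham and at 299.9 to 352 CPM in PNx, and fell by 1.71 (SE 0.32). Hyou1, a large Hsp70 relative that exchanges the nucleotide of BiP, was at 576, 69.9, 154, 525 and 242 CPM in Sham and at 57.2 to 84.5 CPM in PNx, and fell by 2.17 (SE 0.40). In both genes Sham 1 and 4 were the highest and Sham 2 the lowest of the Sham samples.

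Calreticulin (Calr) and calnexin (Canx) hold glycoproteins while they fold. Calr was at 2528, 493, 954, 2384 and 1172 CPM in Sham and at 461 to 621 CPM in PNx, and fell by 1.51 (SE 0.30, adjusted p = 0.0022). Canx, its membrane-bound relative, was at 438, 232, 267, 501 and 314 CPM in Sham and at 108 to 237 CPM in PNx, and fell by 0.86 (SE 0.25, adjusted p = 0.026). Calr was one of the most abundant members per length, at a mean of 439 FPKM in VFAT Sham.

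The smaller chaperone-associated genes showed the largest differences of this class. Sdf2l1, a partner of BiP and its J proteins, was at 174, 5.26, 72.2, 178 and 76.9 CPM in Sham and at 7.24, 9.86, 7.11, 9.58 and 6.003 CPM in PNx. It fell by 3.66 (SE 0.62, adjusted p = 0.00064). Every Sham sample but Sham 2 was above every PNx sample, and Sham 2 was below all 5. Manf, a secreted stress protein, was at 429, 41.0, 269.7, 479 and 223 CPM in Sham and at 46.9, 84.4, 46.8, 50.8 and 46.5 CPM in PNx, and fell by 2.39 (SE 0.42). Creld2, a secreted protein with EGF-like repeats, was at 244, 15.95, 97.3, 237 and 116 CPM in Sham and at 21.9 to 44.7 CPM in PNx, and fell by 2.29 (SE 0.45). In these 3 genes Sham 2 lay below the whole PNx range.

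J cochaperones bring clients to BiP and start its ATPase cycle. Dnajc3, also an inhibitor of PERK, was at 426, 82.9, 121, 331 and 190.4 CPM in Sham and at 79.9 to 114 CPM in PNx, and fell by 1.26 (SE 0.30, adjusted p = 0.0088). Dnajb9 was at 43.7 to 134 CPM in Sham and 14.4 to 42.5 CPM in PNx and fell by 1.26 (SE 0.30, adjusted p = 0.0083). Dnajb11 was at 63.6 to 199 CPM in Sham and 53.4 to 71.7 CPM in PNx and fell by 0.98 (SE 0.23, adjusted p = 0.0069). Of the 3, Dnajb9 was the one in which all 5 Sham samples lay above every PNx sample.

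The disulfide isomerases form and shuffle disulfide bonds. Pdia4 was at 568, 88.0, 258, 719.9 and 317 CPM in Sham and at 86.9 to 112 CPM in PNx, and fell by 1.96 (SE 0.33, adjusted p = 0.00061). Pdia6 was at 1035, 171, 436, 1102 and 551 CPM in Sham and at 153 to 196 CPM in PNx, and fell by 1.91 (SE 0.32, adjusted p = 0.00066). In both genes the Sham samples other than Sham 2 stood above every PNx sample. Pdia3, which works with Calr and Canx, was at 261 to 1294 CPM in Sham and 262 to 301 CPM in PNx and fell by 1.45 (SE 0.30). P4hb, the founding member of the family and also a subunit of collagen prolyl hydroxylase, was at 361 to 1005 CPM in Sham and 370.2 to 395 CPM in PNx and fell by 0.87 (SE 0.21).

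Degradation and translocation genes divided. Derl3, a member of the Derlin channel family with a narrow expression pattern, was at 265, 2.63, 21.4, 148 and 58.1 CPM in Sham and at 0.164, 1.56, 1.97, 0.152 and 1.30 CPM in PNx. It fell by 6.53 (SE 1.30, adjusted p = 0.0023), and here all 5 Sham samples were above every PNx sample. Herpud1, which assembles the degradation complex, was at 244, 72.9, 88.5, 188 and 109.9 CPM in Sham and at 66.1, 73.2, 63.0, 40.4 and 65.3 CPM in PNx, and fell by 1.19 (SE 0.30, adjusted p = 0.012). The channel subunits Sec61a1 (fell by 1.12, SE 0.30, adjusted p = 0.016) and Sec61b (fell by 0.96, SE 0.29, adjusted p = 0.034) were also called. Sel1l and Syvn1, which form the core of the ubiquitin ligase, had log2 fold changes of -0.21 (SE 0.22) and -0.28 (SE 0.20), Edem1, a lectin-like mannosidase, -0.29 (SE 0.18), Derl1 0.35 (SE 0.21) and Derl2 -0.15 (SE 0.16). None of these 5 passed the test.

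Of the sensors, Ern1 was at 90.8, 20.7, 34.9, 92.3 and 45.2 CPM in Sham and at 34.5, 12.2, 17.7, 24.02 and 17.9 CPM in PNx, and fell by 1.42 (SE 0.39, adjusted p = 0.019). Eif2ak3 fell by 1.06 (SE 0.28, adjusted p = 0.017) and Atf6 by 0.72 (SE 0.22, adjusted p = 0.035). Xbp1 went the other way. It was at 236, 199.5, 165, 189 and 185 CPM in Sham and at 284, 264, 355, 277 and 357 CPM in PNx, a log2 fold change of 0.66 (SE 0.14, adjusted p = 0.0039). All 5 PNx samples were above all 5 Sham samples, Sham 2 included. The message of Atf4 (-0.40, SE 0.19) and that of Ddit3, which codes for CHOP (0.55, SE 0.28), were not called.

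Among the integrated stress response targets, Trib3, a pseudokinase induced by ATF4 and CHOP, was at 2.12, 4.73, 4.61, 2.33 and 4.69 CPM in Sham and at 6.41, 9.45, 8.02, 6.54 and 7.18 CPM in PNx. The log2 fold change was 1.02 (SE 0.26, adjusted p = 0.011), and the groups did not overlap. Asns, which makes asparagine, had a log2 fold change of 0.68 (SE 0.34, adjusted p = 0.20) and Phgdh, the entry enzyme of serine synthesis, 0.70 (SE 0.34, adjusted p = 0.19). Phgdh was at 67.7, 286, 189, 98.8 and 145 CPM in Sham and at 202, 295, 278, 214 and 286 CPM in PNx, with Sham 1 and 4 the lowest. Psat1, the next enzyme of serine synthesis (0.39, SE 0.28), Chac1, which degrades glutathione (-0.31, SE 0.47), and Ppp1r15a, which restores translation (-0.43, SE 0.23), were not called.

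**Figure D2:**
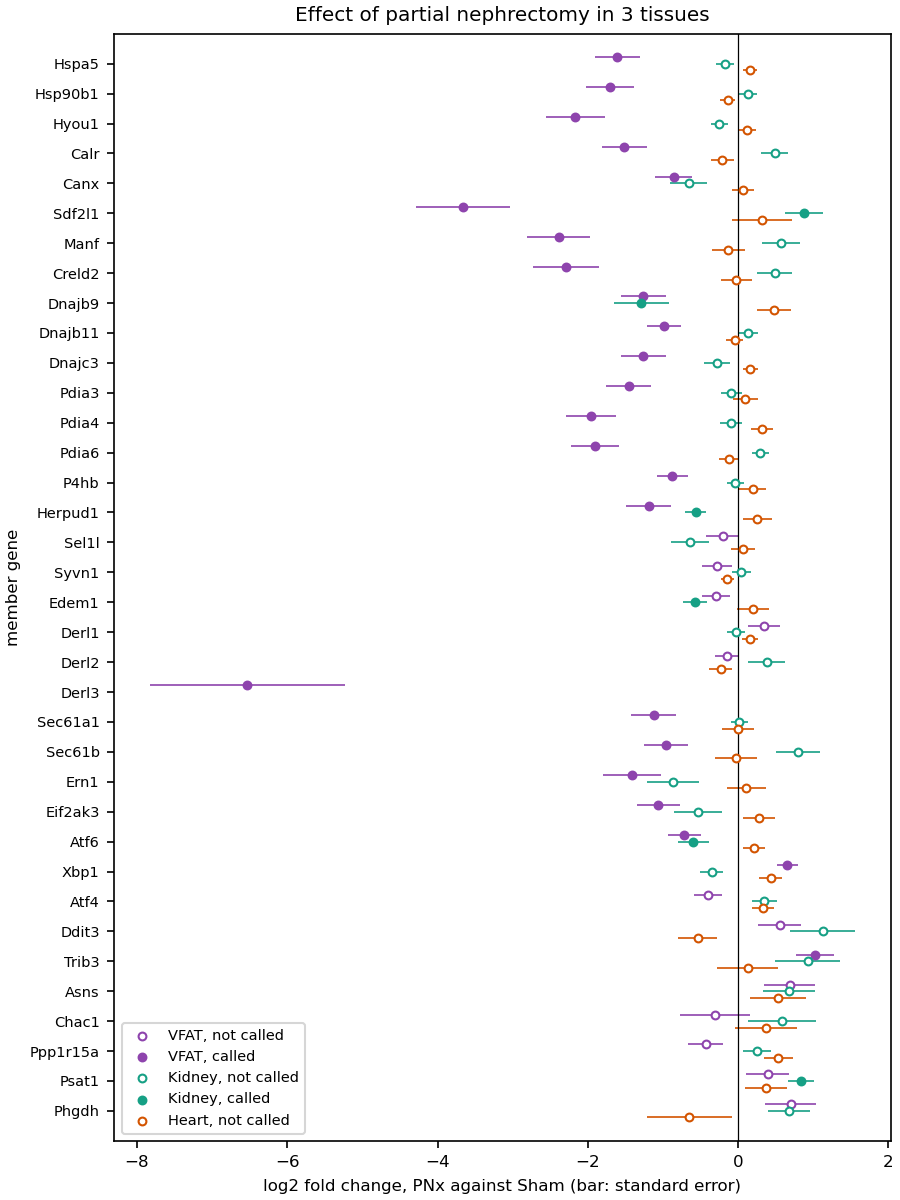
Points are log2 fold changes of PNx against Sham for each member in VFAT, kidney and heart, with bars of 1 standard error and filled points for members called. In VFAT the chaperones, cochaperones and isomerases lie to the left of 0, from -3.66 (Sdf2l1) to -0.86 (Canx). Kidney Dnajb9, at -1.29, is the lowest value outside VFAT.

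Sham 2, the Sham sample with the least epididymal RNA, had the lowest level of the 5 Sham samples in 20 of the 22 lower members, and in 1167 of all 1435 genes called lower. The exceptions were Atf6, at 75.2 CPM in Sham 2 and 53.9 CPM in the lowest other Sham sample, and Eif2ak3, at 23.7 and 21.9 CPM. Gpx5 was at 14725, 235, 6189.9, 12315 and 6646 CPM in Sham 1 to 5, at 76.5 CPM in PNx 2, at 23.7 CPM in scrambled 1 and at 0.0827 to 6.69 CPM in the other 17 VFAT samples. Sham 1, 3, 4 and 5 were each above every PNx sample in 18 of the 22 lower members. This pattern was seen in 8.89% of all genes tested, but in 76.2% of the genes called lower, so the members were close to the latter. With Sham 2 included it held for 2 of the 22, Derl3 and Dnajb9, against 2.26% of all genes tested and 21.9% of the genes called lower. Sham 2 itself lay within the PNx range in 11 of the 22, above it in 4 and below it in 7, and in the genes called lower these counts were 850, 425 and 160. The adipocyte marker sum ran the opposite way, at 3979, 21395, 12555, 2359 and 9641 CPM in Sham 1 to 5 and 15379 to 20086 CPM in PNx. The macrophage marker sum was 240.7 to 572 CPM in Sham and 569.6 to 1235 CPM in PNx, with Sham 2 the highest of the Sham samples, and its part in the changes, those of Xbp1 and Trib3 included, was not tested.

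**Figure D3:**
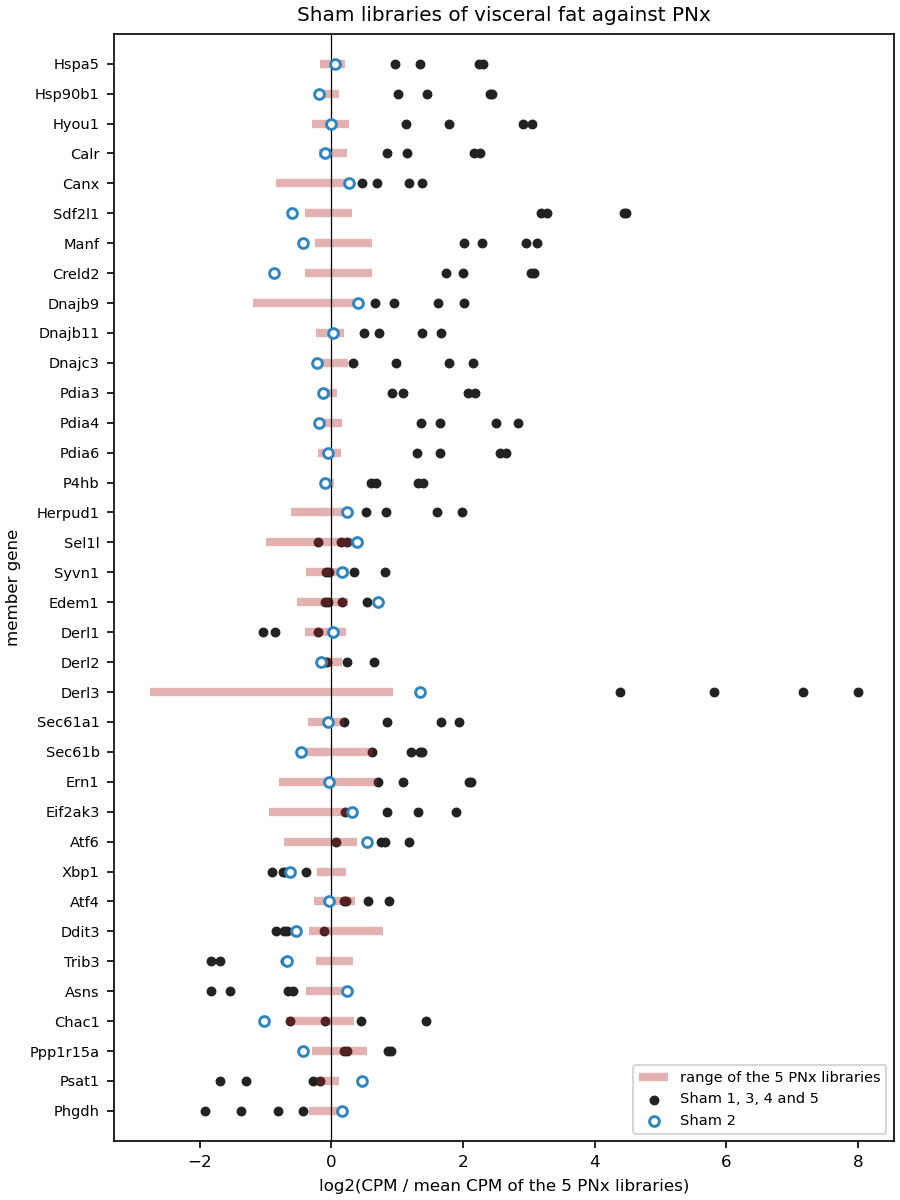
The plot gives, for each of the 36 members in VFAT, the log2 of the CPM of each Sham sample over the mean of the 5 PNx samples, with a bar for the range of the PNx samples. In the rows of the chaperones and isomerases the filled points of Sham 1, 3, 4 and 5 lie to the right, and the open point of Sham 2 lies nearer to the PNx mean than any of them, for example at 0.934 times it for Calr, against 3.33 times for the mean of the other Sham samples.

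The values changed with the Sham samples that entered. A fit with Sham 2 as the only Sham sample was added after that sample was seen to lie near the PNx range, so it restates that position. Its lone Sham sample is assumed to vary like the samples of the other arms. In that fit the median log2 fold change was 0.05 over the members and 0.09 over all genes tested. The sign changed for 14 of the 22 lower members, for example to 0.60 for Sdf2l1 (SE 0.75), 0.43 for Manf (SE 0.48) and 0.19 for Hsp90b1 (SE 0.26), and 12 of these 14 values were smaller than their SE. Xbp1 was at 0.63 (SE 0.24) and Trib3 at 0.67 (SE 0.41). With log2 Gpx5 CPM added to the model, 0 members were called, as were 0 of all 18094 genes tested. Of the members 2 had an unadjusted p under 0.05, and the member median was -0.62. Hspa5 was at -1.16 (SE 0.71) and Sdf2l1 at -3.53 (SE 1.49), while Creld2 was at -0.88 (SE 0.99), Hsp90b1 at -0.78 (SE 0.74), Pdia4 at -0.73 (SE 0.76) and Sec61b at -0.03 (SE 0.60). Gpx5 and the Sham arm are nearly confounded, since 4 of the 5 Sham samples hold the 4 highest values, so the arm and the epididymal RNA cannot be told apart in that model. Leaving out Sham 1 or Sham 4 left 17 members called each, without Canx, Ern1, Atf6, Sec61a1, Eif2ak3, Herpud1 and Sec61b. Leaving out Sham 2 gave 26, with Asns and Phgdh gained as higher. How many of all genes those fits called is not given here. A fit of the same Sham and PNx samples without the other arms called 4 (Derl3, Manf, Pdia6 and Sdf2l1), with a member median of -1.02 and Hspa5 at -1.67 (SE 0.41). It called 384 of all 15189 genes tested, where the fit over the 5 arms called 2283 of 17552.

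With the arm in the model, the slope of a member on log2 Gpx5 CPM over the 24 VFAT samples was called for 0 of the 36 members (2 at an unadjusted p under 0.05), against 0.309% of all genes. DESeq2 also called 0. With the mean of the 15 epididymis markers in place of Gpx5 alone, the slope was called for 8 members, all upward: Calr, Hsp90b1, Pdia6, Creld2, Pdia4, Manf, Ppp1r15a and Sec61b, against 7.23% of all genes. Without an arm term it was called for 27 members, 24 upward and 3 downward, against 23.3% of all genes. Every Sham sample had more Gpx5 (235 CPM or more) than any other VFAT sample (76.5 CPM or less). The slope without an arm term therefore cannot be told apart from the difference between Sham and the other arms. The samples fell into 2 clusters of Gpx5, 20 at or below a log2 CPM of 7.88 and 4 at or above 12.60, so no pooled correlation is given. The upper cluster is too small for a correlation. Within the 20 samples of the lower cluster, Pearson's r between a member and Gpx5 ran from -0.46 to 0.38 with a median of -0.11, and 0 of 36 had an adjusted p under 0.05 by a two-sided permutation test over all 17551 genes (1 by an unadjusted Pearson p under 0.05, 2 by Spearman's rho). The lowest was Sdf2l1 (r = -0.46, p = 0.043, adjusted p = 0.9999; rho = -0.35, p = 0.13). Without Sham 2 and PNx 2, the samples farthest from the median Gpx5 level, r ran from -0.46 to 0.37 and 0 members passed. Among these 20 samples with less Gpx5, no relation of the members to Gpx5 was detected. Low Gpx5 did not always mean little epididymal RNA. In NaKtide 5 Gpx5 was at 0.557 CPM, but the 15 epididymis markers summed to 2863 CPM, against 481 CPM in Sham 2.

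**Figure D4:**
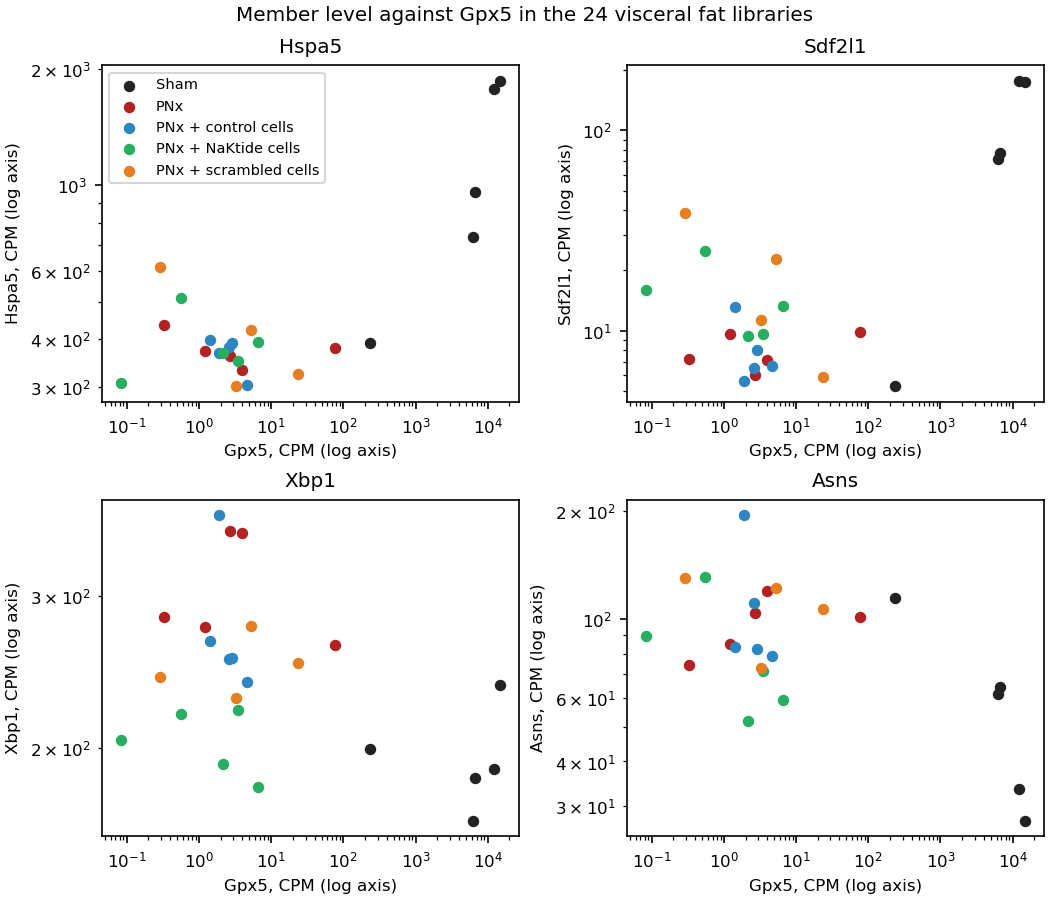
The panels plot the CPM of Hspa5, Sdf2l1, Xbp1 and Asns against the CPM of Gpx5 in the 24 VFAT samples, both on log axes and coloured by arm. The 4 Sham samples at 6189.9 CPM of Gpx5 or more stand apart on the right, and Sham 2, at 235 CPM of Gpx5, is at 391.6 CPM of Hspa5.

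Other genes of the secretory pathway, from lists drawn up with the members, were called lower more often than higher in VFAT. Of 103 tested, 2 were called higher and 35 lower after PNx and 66 were not called, with a median log2 fold change of -0.36. The share called was 35.9%, against 13.0% of all genes tested (8.18% lower and 4.83% higher). Translocation and glycosylation genes were called lower in 16 of 25, among them the signal peptidase subunit Sec11c (-1.91) and the oligosaccharyltransferase subunit Ddost (-1.24). Folding and oxidation genes were called lower in 9 of 22, among them the disulfide reductase Dnajc10 (-2.78) and the glycoprotein folding sensor Uggt1 (-1.19). Of the other degradation genes 3 of 15 were lower, among them the lectin Erlec1 (-1.43) and the ubiquitin-conjugating enzyme Ube2j1 (-0.39). Of 20 other sensors and factors, Creb3l1 was higher (1.24) and 2 were lower, Wfs1 (-1.20) among them, with a median of 0.04. Their share, 15%, was close to that of all genes. Of 21 amino acid response genes, 1 was higher and 5 lower, among them the tryptophanyl-tRNA synthetase Wars (-2.73) and the amino acid transporter Slc7a5 (-5.66). These rest on the same Sham samples as the members.

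Of the 31 members in the promoter table, the 9 with an ERSE included 8 called lower in VFAT PNx, and Syvn1 was the exception. The 22 members of that table without an ERSE included 10 called lower, 2 called higher and 10 not called. Hyou1, Manf, Derl1, Sec61a1 and Atf6 were absent from it and are not counted. The presence of the element was not tested against the change.

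In the cell transplant arms of VFAT, no member passed the test. The count was 0 of 36 for control cells against PNx (0% of all genes called), for NaKtide cells against PNx (0%), for NaKtide against scrambled cells (2.36%) and for scrambled against control cells (2.41%). At an unadjusted p under 0.05 the counts were 0, 1, 0 and 2. Both comparisons against PNx share the PNx samples, and those with scrambled cells share the scrambled samples. Hspa5 was at 304 to 397 CPM with control cells, at 308 to 510.1 CPM with NaKtide cells and at 302 to 613 CPM with scrambled cells, so all 3 ranges overlapped that of PNx.

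Single samples stood out in these arms, as seen after their values were known. NaKtide 5, the sample with 50158 CPM of seminal vesicle genes and a Gpx5 of 0.557 CPM but an epididymis marker sum of 2863 CPM, had the highest Derl3 (20.8 CPM against 0.492 to 1.22 in NaKtide 1 to 4), Sdf2l1 (24.8 against 9.42 to 15.96 CPM) and Hspa5 (510.1 against 308 to 393 CPM) of its arm. Scrambled 3, with the highest acinar sum (39789 CPM), had the highest Derl3 of its arm (8.93 CPM). Scrambled 4, with a macrophage marker sum of 7437 CPM against 240.7 to 1654 CPM in every other VFAT sample and a skeletal muscle sum of 24724 CPM, had the highest Hspa5 (613 CPM) and Sdf2l1 (38.7 CPM). The part of these other tissues in the members' levels was not tested sample by sample. With the acinar markers added to the model, the members called stayed at 0 in these 4 comparisons.

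Xbp1 was at 205, 192, 181, 222 and 219 CPM with NaKtide cells, below all 5 PNx samples and within the range of the Sham samples. Its log2 fold change against PNx was -0.59 (SE 0.14), with an adjusted p of 0.80 by edgeR's test over all genes. DESeq2 called it. With control cells Xbp1 was at 254, 239, 255, 373 and 266 CPM and with scrambled cells at 251, 229, 277 and 242 CPM. In scrambled against control cells, Sdf2l1 (1.28, SE 0.60, adjusted p = 0.30) and Atf4 (0.44, SE 0.20, adjusted p = 0.27) had the lowest p-values of the members.

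In the kidney, 6 of the 35 members tested were called after PNx (17.1%), and 16.8% of all 16307 genes were called, 9.25% higher and 7.56% lower, so the share of members was close to the background. Derl3, at 0 to 1.58 CPM, was too low to be tested there. Psat1 was at 17.4, 15.01, 22.7, 19.9 and 19.0 CPM in Sham and at 36.8, 32.0, 37.1, 26.4 and 36.0 CPM in PNx, a log2 fold change of 0.84 (SE 0.17, adjusted p = 0.0082). Sdf2l1 was at 5.77, 4.37, 5.404, 5.22 and 5.27 CPM in Sham and at 6.76, 6.40, 14.2, 10.9 and 9.81 CPM in PNx, a log2 fold change of 0.87 (SE 0.25, adjusted p = 0.030). Both rose without overlap between the groups, and the highest Sdf2l1 values were those of PNx 3, 4 and 5.

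Herpud1 was at 290.5, 280.3, 278, 321 and 299 CPM in Sham and at 177, 178, 200.1, 189 and 248 CPM in PNx, and fell by 0.57 (SE 0.14, adjusted p = 0.020). Dnajb9 was at 36.7, 36.4, 50.6, 45.4 and 41.6 CPM in Sham and at 32.5, 28.7, 6.31, 9.32 and 8.69 CPM in PNx, and fell by 1.29 (SE 0.37, adjusted p = 0.030). Edem1 fell by 0.57 (SE 0.16, adjusted p = 0.027) and Atf6 by 0.60 (SE 0.20, adjusted p = 0.048). In none of these 4 did the groups overlap, as in Psat1 and Sdf2l1, but the share of all kidney genes without overlap was not counted. In Dnajb9 the fall was mostly that of PNx 3, 4 and 5. The largest log2 fold changes among the members not called were those of Ddit3 (1.13, SE 0.43, adjusted p = 0.063) and Trib3 (0.93, SE 0.43, adjusted p = 0.11), and Hspa5 was at -0.17 (SE 0.12).

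**Figure D5:**
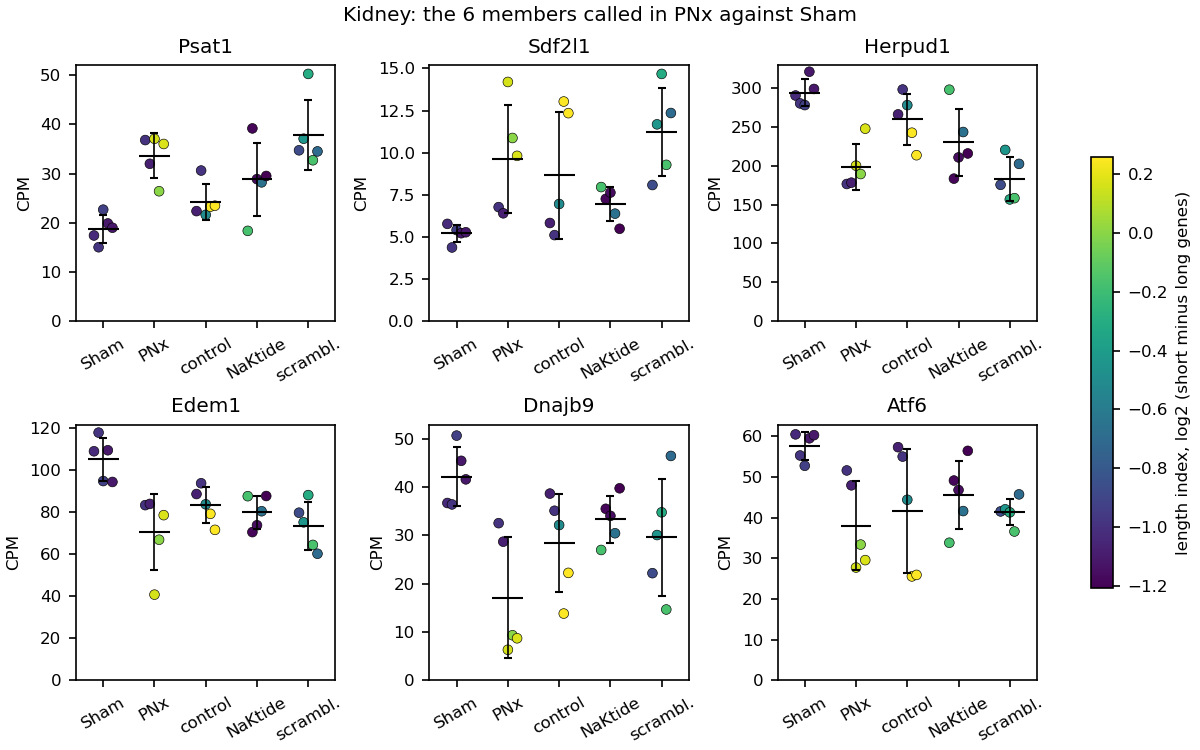
Points are the CPM of the 6 members called in the kidney, in each sample of the 5 arms, coloured by the length index, with the mean and SD of each arm as a line and bar. Psat1 and Sdf2l1 are higher and Herpud1, Edem1, Dnajb9 and Atf6 lower in PNx than in Sham. For Dnajb9, PNx 3, 4 and 5 lie at 6.31 to 9.32 CPM.

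PNx 3, 4 and 5 of the kidney stood apart in another measure. A length index, the mean log2 CPM of the genes with the shortest exon length (lowest quartile) minus that of the genes with the longest (highest quartile), was -1.11 to -0.92 in Sham and -0.99 and -1.08 in PNx 1 and 2, but 0.16, -0.00 and 0.17 in PNx 3 to 5 and 0.25 and 0.26 in control cells 4 and 5. With this index as a covariate 2 members were called, Psat1 (0.94) and Herpud1 (-0.63), and 568 of all 16541 genes, against 2742 of 16307 without it. Without PNx 3, 4 and 5 and control cells 4 and 5, Herpud1 was the one member called (-0.73, adjusted p = 0.048), with Psat1 at 0.86 (adjusted p = 0.072). That fit called 97 of all 16957 genes. Leaving out single samples gave from 1 call (without Sham 4, Psat1) to 17 (without PNx 2), with 16 without PNx 1. The calls of Sdf2l1 and Atf6 were lost without any one of Sham 1, 2, 3, 4 or 5 or PNx 3, 4 or 5, and that of Dnajb9 without any of these but Sham 5. The call of Edem1 was lost without Sham 1, 2 or 4 or PNx 3 or 4, and that of Herpud1 without Sham 4. DESeq2 called 15 members, and 4413 genes in all. The calls over all genes in the fits without single samples are not given here.

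In the other pathway lists of the kidney, 12 of 102 genes were called, 8 higher and 4 lower. That share, 11.8%, was below the 16.8% of all genes tested. Amino acid response genes gave 6 of the 20 tested, among them the secreted stress hormone Gdf15, higher (1.20), and the alanine aminotransferase Gpt2, lower (-0.67). Of 20 other sensors and factors 4 were called, among them the translation regulator Ppp1r15b (-0.75) and the apoptosis effector Bak1 (0.71). The folding list gave Erp29 (0.90) and Ppib (0.49), both higher, and the translocation and degradation lists gave 0 each.

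No member passed the test between the cell arms of the kidney. The counts were 0 of 35 for control cells against PNx, NaKtide cells against PNx and NaKtide against scrambled cells (0% of all genes each) and for scrambled against control cells (0.0123%), with 3, 3, 4 and 3 members at an unadjusted p under 0.05. Psat1 was at 34.7, 37.1, 50.3, 32.7 and 34.5 CPM with scrambled cells and at 22.4, 30.6, 21.6, 23.3 and 23.5 CPM with control cells. The log2 fold change was 0.64 (SE 0.17, adjusted p = 0.21), with no overlap between these groups. Herpud1 in the same comparison was at -0.51 (SE 0.14, adjusted p = 0.22), and DESeq2 called it as the one member, with 86 genes called in all.

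In the heart, no member was called in any of the 5 comparisons by edgeR. For PNx against Sham the count was 0 of 35, with 0.126% of all 15091 genes called, and 6 members had an unadjusted p under 0.05. For the other 4 comparisons 0% of genes were called, and 1, 2, 2 and 4 members had such a p for control cells against PNx, NaKtide cells against PNx, NaKtide against scrambled cells and scrambled against control cells. DESeq2 also called 0 in each. Hspa5 was at 366, 295, 309, 291 and 297 CPM in Sham and at 315, 329.6, 369, 394 and 328 CPM in PNx, a log2 fold change of 0.16 (SE 0.09, adjusted p = 0.40). Xbp1 was at 47.0, 34.98, 43.2, 47.8 and 41.2 CPM in Sham and at 76.9, 53.6, 48.5, 48.6 and 61.5 CPM in PNx, without overlap (0.43, SE 0.15, adjusted p = 0.18). The largest values among the members were those of Phgdh (-0.65, SE 0.57) and Ddit3 (-0.54, SE 0.26).

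The effect of PNx on the members differed between tissues. For VFAT minus kidney, 14 of 36 members were called, 13 more negative in VFAT and Xbp1 more positive, against 6.50% of all genes. The largest differences in members tested in both tissues were those of Sdf2l1 (-4.50) and Manf (-2.91). Derl3 was at -6.87, but its kidney level was too low for a kidney test. The difference of Xbp1 was 1.04 (SE 0.21, adjusted p = 0.0036 by edgeR). For VFAT minus heart, 12 members were called, all more negative in VFAT, against 4.84% of all genes, the largest differences being those of Sdf2l1 (-3.96) and Hyou1 (-2.27). That count ran from 8 without VFAT Sham 1 or Sham 4 to 23 without VFAT Sham 2, where the share of all genes called is not given. For kidney minus heart, 0 members were called by edgeR (0.0978% of all genes, 9 members at an unadjusted p under 0.05). DESeq2 called 4 members, and 2302 of all 32333 genes. The differences that involve VFAT use all 5 of its Sham samples, 4 of which held much epididymal RNA.

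Between tissues, the members were called in the Sham samples about as often as other genes or more often. Of 36 members, 23 were called between VFAT and kidney, 22 higher in VFAT (49.3% of all genes called), 30 between VFAT and heart, 29 higher in VFAT (57.3%), and 23 between kidney and heart, 18 higher in kidney (62.5%). The shares of members were 63.9%, 83.3% and 63.9%, so that between kidney and heart was close to the background. The enzymes of amino acid synthesis were among the largest differences. Phgdh was higher in VFAT than in kidney by 3.73 on the log2 scale (SE 0.34) and than in heart by 6.61 (SE 0.42), Asns than in kidney by 4.26 (SE 0.41), and Psat1 than in kidney by 2.72 (SE 0.36) and in heart by 4.83 (SE 0.41). Phgdh was at 67.7 to 286 CPM in VFAT Sham, at 7.19 to 11.8 CPM in kidney Sham and at 0.909 to 1.30 CPM in heart Sham, so the tissues did not overlap. Edem1 was lower in heart than in kidney by 3.07 (SE 0.25) and than in VFAT by 2.95 (SE 0.24), and Syvn1 was higher in VFAT than in heart by 1.83 (SE 0.16).

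Other members had their own orders between the tissues in Sham, where VFAT samples 1, 3, 4 and 5 held much epididymal RNA. Derl3 was higher in VFAT Sham than in kidney Sham by 7.01 (SE 0.96), and it was at 2.63 to 265 CPM in VFAT, at 0.473 to 1.01 CPM in kidney and at 0 to 0.151 CPM in heart. In VFAT PNx it was at 0.152 to 1.97 CPM. The expression filter left it out of the comparison of VFAT and kidney in PNx samples, so it was not tested there. Xbp1 was higher in kidney than in heart by 1.04 (SE 0.14), as were Phgdh by 2.88 (SE 0.40) and Eif2ak3 by 2.00 (SE 0.29). Herpud1 was the member that was lower in VFAT than in kidney, and Ddit3 the one lower in VFAT than in heart. Atf6, Ddit3, Trib3, Chac1 and Ppp1r15a were lower in kidney than in heart. Per length, the most abundant members in Sham were Calr, Hspa5 and Hsp90b1 in VFAT (means of 439, 228 and 222 FPKM), P4hb, Calr and Pdia3 in kidney (207, 181 and 134 FPKM), and Calr, Hspa5 and P4hb in heart (111, 91.6 and 90.4 FPKM).

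The same comparisons were made in PNx samples, in place of Sham in every tissue. There 14 members were called between VFAT and kidney, 8 higher and 6 lower in VFAT (53.6% of all genes called), with a member median of -0.10 where it was 0.89 in Sham. Between VFAT and heart 21 were called (17 higher, 4 lower, 47.5% of all genes called), and between kidney and heart 27 (21 higher in kidney, 6 lower, 58.3% of all genes called). In Sham, leaving out single VFAT samples gave 22 to 27 members called between VFAT and kidney, without a count over all genes here. Phgdh, Asns and Psat1 were called between VFAT and kidney in both sets. The chaperones Hspa5 and Hsp90b1, called between VFAT and kidney in Sham (1.44, SE 0.32, and 1.54, SE 0.36), were not among those called in PNx.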

How the data were processed

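Snap-frozen tissue gave RNA by a Qiagen RNeasy Plus Universal kit, per the labels' protocols, and 2 reads of 50 bases were taken per fragment, per the series' design text. The submitters' processing notes name HISAT2 2.1.0, Trimmomatic 0.38, build GRCm38 and DESeq2 (1.20.0 and 1.20.1). How reads were counted, and with which strand setting, is not given in the sources used here. The authors deposited raw counts per gene, used for all tests, and FPKM values that the authors made from normalized counts, used only to compare levels between genes. The second library of number 3 in kidney Sham and in VFAT scrambled cells was added to the first.

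Each tissue was fitted over its 5 arms with edgeR 4.0.16 in R 4.3.3 (TMM, filterByExpr, two-sided quasi-likelihood F test), with p-values adjusted over all genes tested. A second Ensembl gene named Ddit3, at 0 in every library, was left out. Log2 CPM used a prior count of 2. Comparisons between tissues and differences of effects came from joint fits of the samples concerned. Alternatives were DESeq2 1.42.0, its size factors in edgeR, no expression filter, only the 2 arms compared, a replicate block, covariates, other treatments of second libraries, and leaving out samples; acinar covariates, Sham 2 alone, PNx in place of Sham and the seminal vesicle list were added after the data were seen. The scripts were tested on simulated data. Members, lists and tests were chosen with earlier results of these data known. Members called in the PNx comparison, the 4 of lowest adjusted p in others, up to 2 uncalled members and 2 called genes per other list are named by rule; exceptions are marked. Symbols and positions are from GENCODE M21, promoters from RefSeq. The shallowest library, at 1241590 counts, makes genes near 1 CPM imprecise.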

Additional observations from a re-analysis of the deposited data

Results flagged for a closer look

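Lone values were looked for in the Sham and PNx groups of VFAT and kidney, each of 5 samples. The measure was the gap from the highest or lowest sample to its nearest neighbour over the whole range of the group. For the members called in PNx against Sham there, 60 groups were examined. The cell transplant arms and the heart were not searched. Chance flags about 1 in 20 groups, and 2 were found. Both were in VFAT PNx 2, where Manf was at 84.4 CPM against 46.5 to 50.8 CPM in the other PNx samples and Sec61b at 60.6 CPM against 29.2 to 37.0 CPM. PNx 2 also had the highest Gpx5 of the PNx samples (76.5 CPM).

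The effect of PNx differed between VFAT and kidney, by a test of the difference itself, in 14 members. The differences on the log2 scale, VFAT minus kidney, were -6.87 for Derl3, -4.50 for Sdf2l1, -2.91 for Manf, -2.74 for Creld2, -2.17 for Pdia6, -1.96 for Calr, -1.89 for Hyou1, -1.84 for Pdia4, -1.81 for Hsp90b1, -1.71 for Sec61b, -1.40 for Hspa5, -1.33 for Pdia3, -1.07 for Dnajb11 and 1.04 for Xbp1. VFAT differed from heart in 12 members, by -3.96 for Sdf2l1, -2.27 for Hyou1, -2.26 for Pdia4, -2.23 for Creld2, -2.22 for Manf, -1.76 for Pdia6, -1.75 for Hspa5, -1.56 for Hsp90b1, -1.54 for Pdia3, -1.43 for Herpud1, -1.41 for Dnajc3 and -1.05 for P4hb. Derl3 was too low in kidney for a kidney test. The VFAT effects use all 5 Sham samples, 4 of which held much epididymal RNA. In Xbp1 and Derl3 the VFAT groups did not overlap with Sham 2 included.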

How the results depend on the processing

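Counts of members called are compared with the main values of the report. In VFAT PNx against Sham (24, with 2283 of all 17552 genes called), a fit of only the 2 arms gave 4 (384 of 15189 genes). Gpx5 as a covariate gave 0 (0 of 18094 genes), and leaving out single samples gave 17 to 26. With Sham 2 alone, a single sample chosen after its values were seen, the log2 fold change reversed for Creld2 (0.88), Sdf2l1 (0.60), Sec61b (0.48), Manf (0.43), Dnajc3 (0.22), Pdia4 (0.19), Hsp90b1 (0.19), Pdia3 (0.13), Calr (0.10), P4hb (0.093), Sec61a1 (0.0514), Pdia6 (0.0498), Ern1 (0.0405) and Hyou1 (0.0024), and 12 of these 14 were smaller than their SE (0.23 to 0.75). In kidney PNx against Sham (6, with 2742 genes called in all), DESeq2 gave 15 (4413 in all) and second libraries kept separate 11 (4283). The length index gave 2 (568), only the 2 arms 1 (146), and leaving out PNx 3, 4 and 5 with control cells 4 and 5 gave 1 (97). Leaving out single samples gave 1 to 17 members. Kidney scrambled against control cells (0) gave 1 by DESeq2 (86 genes in all) and 2 without those 5 samples (228 in all). VFAT NaKtide cells against PNx (0) gave 1 by DESeq2 (29 in all). VFAT against kidney (23) gave 14 with PNx samples. Kidney minus heart (0) gave 4 by DESeq2 (2302 in all), 2 with its size factors (718 in all) and 0 to 6 without single samples. VFAT minus kidney (14) gave 12 to 18 and VFAT minus heart (12) 8 to 23 without single samples. The slope on Gpx5 (0) gave 8 with the mean of the epididymis markers and 27 without an arm term, where it cannot be told apart from the difference between Sham and the other arms. Calls over all genes are not given for the fits without single samples, so those member counts have no background beside them. The causes of these shifts were not tested.

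Same-numbered samples were not treated as paired: every pair had a correlation of deviations over 0.1 in 0 of 21 comparisons, and at most 4 of 5 pairs did, in heart NaKtide cells and kidney control cells against PNx. With a replicate block, 23 members were called in VFAT (1784 genes in all) and 9 in kidney (2679 in all) for PNx against Sham. VFAT minus heart gave 8 (506 in all), without Creld2, Hsp90b1, Manf and P4hb. In each other comparison the count was within 1.5 times that of the fit without the block. Members near 1 CPM, such as kidney Trib3, rest on few counts.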
